A study of Mus musculus with 2 samples.

Results

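The genes of integrin subunits and laminin chains were measured in single cells of the mouse lower incisor. All symbols of the count matrix that name an integrin alpha or beta subunit, or an alpha, beta or gamma laminin chain, were taken, with no use of their values. This gave 37 of 31053 genes: 18 alpha subunits, 8 beta subunits and 11 laminin chains. The cells came from untreated C57BL/6 mice of 4 weeks, whose incisor pulp was digested with collagenase together with the dental epithelium. The labels call the tissue dental mesenchyme. The deposited data were a single matrix from 10x Genomics 3′ v3 libraries, and the 2 sample titles differed only in their lane. No barcode could be tied to either title, so all cells count as 1 sample. The number of animals is not given, and no difference has a replicate check or a p-value.

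Integrins are surface receptors made of an alpha and a beta subunit, and they tie the matrix outside a cell to its cytoskeleton. Laminins are trimers of an alpha, a beta and a gamma chain that form the sheet of the basement membrane. In stratified epithelia the integrin of Itga6 and Itgb4 binds laminin that holds the products of Lama3 and Lamb3, and anchors the cell in hemidesmosomes. Ameloblasts, which secrete enamel, and odontoblasts, which secrete dentin, develop on opposite sides of the dental basement membrane.

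The rule on barcodes (at least 500 detected genes and at most 20% mitochondrial UMIs) left 4775 of 5336, and 4502 cells remained after likely doublets and cells with haemoglobin RNA were removed. They held a median of 5779.5 unique molecular identifiers (UMIs) and fell into 27 clusters, formed without the members and their partner genes. Epithelial cells numbered 768, mesenchymal cells 2205, immune cells 1398, endothelial cells 74 and erythroid cells 57. The median depth was 9307 UMIs in epithelial cells, 7005 in mesenchymal cells, 2863 in immune cells and 4495.5 in endothelial cells. Epithelial family markers summed to 2709 CPM (UMIs per 1000000 UMIs) in epithelial cells, against 36.6 CPM in mesenchymal cells, with 9 of 10 at least 2-fold higher. Mesenchymal family markers summed to 437 CPM in epithelial cells and 16099 CPM in mesenchymal cells. Levels below are CPM of counts summed over the cells of a class or cluster, and intervals are exact 95% intervals that cover counting error only. A 3′ tag count carries no term for transcript length. A member was counted as higher or lower at 2-fold, with at least 30 UMIs over both sides.

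Members held 44962 UMIs in the kept cells, or 0.131% of all UMIs, and 90.9% of the cells held at least 1 of them. The median cell had UMIs of 3 members. At least 300 UMIs were found for 25 members, and the other 12 had fewer. Itgb1, the beta subunit shared by most integrins, had the most (7664), while Lamb3 had 4501, Lama3 4140 and Itga4 3306. Below 30 UMIs were Itga7 (13), the muscle laminin receptor subunit, Itgae (10), the partner of Itgb7 that binds E-cadherin, and Itgad (4), a leukocyte subunit. The other 9 of these 12 had 52 UMIs (Itga2b), 83 (Itga8), 89 (Itgb3), 96 (Itgax), 142 (Itga10), 167 (Itgb8), 168 (Itga1), 206 (Itgb7) and 253 (Lama5). No member was at 0. In droplets of 1 to 20 UMIs, taken as free RNA, Itgb1 had 117 CPM, Lamb3 44.1 CPM, Lama3 30.9 CPM, Itga4 33.3 CPM and Itgb2 23.9 CPM.

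**Figure D1:**
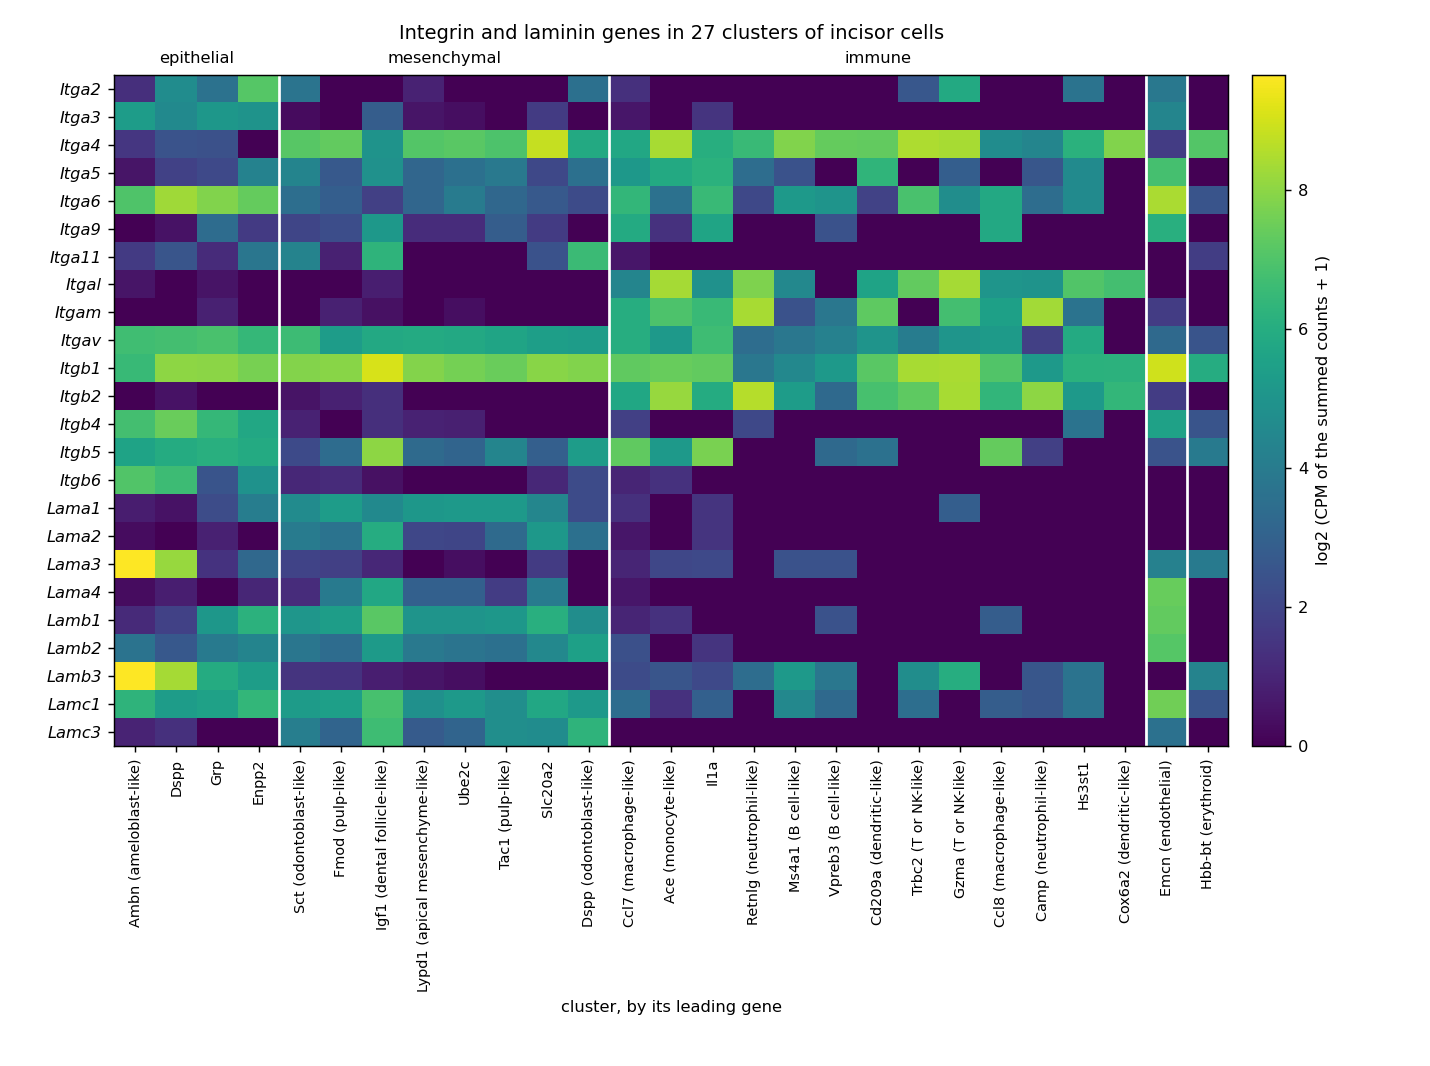
Levels of 24 members with at least 300 UMIs (rows) in the 27 clusters (columns, named by their leading gene and, where markers allowed, by a cell type); colour is log2 of the summed CPM plus 1. Lama3 and Lamb3 are brightest in the Ambn-led epithelial cluster, at 793 and 807 CPM, whereas Itgb2, Itgal and Itgam are bright only in immune columns.

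Summed over the 18 alpha subunits, the levels were 379 CPM in epithelial cells, 275 CPM in mesenchymal cells, 516 CPM in immune cells and 725 CPM in endothelial cells. The 8 beta subunits summed to 442 CPM in epithelial cells, 327 CPM in mesenchymal cells, 401 CPM in immune cells and 549.9 CPM in endothelial cells. Which members made up the sums differed between the classes. Itga6 held 53.3% of the alpha subunit UMIs in epithelial cells (interval 51.7% to 54.8%), and Itga4 held 51.2% of them in mesenchymal cells (49.8% to 52.6%). In immune cells Itga4 (24.9%), Itgam (20.5%) and Itgal (17.0%) led, and in endothelial cells Itga6 again led with 48.0% (42.4% to 53.6%). Itgb1 held 40.9% of the beta subunit UMIs in epithelial cells, 82.3% in mesenchymal cells, 34.6% in immune cells and 89.4% in endothelial cells.

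The stretches of 250 bases before the annotated starts of members were searched for 6 motifs, because several members were high in the same cells. RefSeq promoter windows of build GRCm38.p6 were found for 23 of the 37 members. The motifs, read on both strands, were TGANTCA (AP-1), GAGGAA (the core of PU.1 sites), TGTGGT (RUNX), GGGCGG (the GC box), CATTCC (TEAD) and TATAAA (the TATA box). GAGGAA can share its last letters with CATTCC read on the other strand. GAGGAA stood in at least 1 window of 13 of the 23 members, against 25.9% of the 27025 genes with windows. GGGCGG stood in 8 members against 35.4% of genes, CATTCC in 3 against 14.4%, TGTGGT in 2 against 15.9%, and TGANTCA in 1 against 7.82%. TATAAA stood in 0 of the 23 members, against 14.3% of genes. A match is a description of the letters only. The windows below were chosen among the members that have one, as examples of genes that were high in epithelial (Lamb3, Itgb6), mesenchymal (Itga4) and immune cells (Itgam), and they do not include every member with a high ratio. Lamb3 and Itgb6 have 2 windows each, of which the one before the more upstream start is shown. All are written 5′ to 3′ on the strand of the gene, end 1 base before the start, and carry any motif match in capitals.
Lamb3, chr1:193301744-193301993, plus strand: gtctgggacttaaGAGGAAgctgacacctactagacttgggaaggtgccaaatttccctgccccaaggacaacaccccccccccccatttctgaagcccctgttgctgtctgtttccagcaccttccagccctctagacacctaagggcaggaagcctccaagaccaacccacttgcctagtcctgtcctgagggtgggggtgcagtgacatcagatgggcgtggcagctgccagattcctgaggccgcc
Itgb6, chr2:60722604-60722853, minus strand: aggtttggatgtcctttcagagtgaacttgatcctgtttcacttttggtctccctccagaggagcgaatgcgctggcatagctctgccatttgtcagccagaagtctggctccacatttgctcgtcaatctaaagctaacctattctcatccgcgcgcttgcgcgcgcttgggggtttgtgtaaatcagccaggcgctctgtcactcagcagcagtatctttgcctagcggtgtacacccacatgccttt
Itga4, chr2:79255176-79255425, plus strand: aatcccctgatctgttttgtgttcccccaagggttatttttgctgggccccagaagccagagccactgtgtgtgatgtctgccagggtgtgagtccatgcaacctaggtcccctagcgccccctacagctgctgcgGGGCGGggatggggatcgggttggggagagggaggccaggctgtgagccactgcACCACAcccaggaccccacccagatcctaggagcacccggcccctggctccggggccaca
Itgam, chr7:128062390-128062639, plus strand: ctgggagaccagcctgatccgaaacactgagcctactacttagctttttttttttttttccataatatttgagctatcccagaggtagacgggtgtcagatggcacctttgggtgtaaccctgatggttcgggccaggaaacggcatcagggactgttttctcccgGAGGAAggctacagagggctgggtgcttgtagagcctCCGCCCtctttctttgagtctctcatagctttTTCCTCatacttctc
The Lamb3 window held GAGGAA from 237 bases before the start, and the Itgb6 window held 0 matches. In the windows not shown, Itgb6 held GAGGAA from 35 bases and Lamb3 held CATTCC from 167 bases before the start. The Itga4 window held GGGCGG from 114 bases and TGTGGT, on the other strand, from 60 bases before the start. The Itgam window held GAGGAA from 84 and, on the other strand, from 15 bases before the start, with GGGCGG on the other strand from 47 bases.

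Ratios of epithelial to mesenchymal cells above 7 on the log2 scale were those of laminin chains, Lama3 and Lamb3 among them, and of Itgb4 and Itgb6. Lamb3 (chr1:193207699-193343878, plus strand, mm10 with the GENCODE M21 annotation) had 437 CPM in epithelial cells (4433 UMIs, interval 424 to 450.1) and 0.890 CPM in mesenchymal cells (16 UMIs), a log2 ratio of 8.94 (8.24 to 9.75). Lama3 had 404 CPM in epithelial cells and 1.39 CPM in mesenchymal cells, a log2 ratio of 8.18 (7.62 to 8.81). In mesenchymal cells both chains were near 0, and their levels lay below those of the free-RNA droplets. Cells with at least 2000 UMIs were thinned to that number, and the 687 cells with fewer, 450 of them immune, were left out of the thinned shares. After thinning, 45.6% of 711 epithelial cells held a Lamb3 UMI, against 0.0492% of 2033 mesenchymal cells and 1.69% of 948 immune cells. Without thinning, and over all cells of each class, the shares were 68.1% of epithelial, 0.454% of mesenchymal and 2.79% of immune cells.

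The laminin receptors of epithelia followed the same division. Itgb4, the hemidesmosome subunit (chr11:115974709-116008412, plus strand), had 115 CPM in epithelial cells and 0.723 CPM in mesenchymal cells (log2 ratio 7.32, 6.54 to 8.23). Its partner Itga6 (chr2:71745616-71858416, plus strand) had 202 CPM in epithelial cells and 8.84 CPM in mesenchymal cells (4.51, 4.28 to 4.76). Itga3, another laminin receptor subunit, which pairs with Itgb1, had 32.9 CPM in epithelial cells and 1.22 CPM in mesenchymal cells (4.75, 4.13 to 5.44). Itgb6, which pairs with Itgav in a receptor that activates latent TGF-beta, had 82.3 CPM in epithelial cells and 0.612 CPM in mesenchymal cells (7.07, 6.23 to 8.08). These receptor genes were thus near 0 in mesenchymal cells, except for Itga6. Itga2, a collagen-binding subunit, had 22.3 CPM in epithelial cells and 3.34 CPM in mesenchymal cells (2.74). Lama5, an alpha chain of epithelial and vascular basement membranes, had 20.5 CPM in epithelial cells and 0.278 CPM in mesenchymal cells (6.20, 4.96 to 7.84). In all, 9 of the 29 measured members were at least 2-fold higher in epithelial cells, where 10.5% of 12920 genes tested were.

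Lower in epithelial cells were 14 of the 29 members, against 20.1% of all genes tested. Lama2, the alpha chain of muscle and nerve basement membranes, had 0.296 CPM in epithelial cells (3 UMIs) and 18.3 CPM in mesenchymal cells, a log2 ratio of -5.95 (-8.24 to -4.39). Itga4 (chr2:79255426-79333123, plus strand), which binds Vcam1 and fibronectin, had 2.96 CPM in epithelial cells and 141 CPM in mesenchymal cells (-5.57, -6.14 to -5.05). Lama4, a vessel-wall chain, had 0.394 CPM in epithelial cells and 13.6 CPM in mesenchymal cells (-5.11). Lamc3 had 0.789 CPM in epithelial cells and 26.96 CPM in mesenchymal cells (-5.10), and Lama1, the chain of early embryonic laminin, had 2.76 CPM and 30.2 CPM in the same order (-3.45). Of the 14, Itga4 alone had over 100 CPM in mesenchymal cells. The fibronectin receptor subunit Itga5 had 3.35 CPM in epithelial cells and 14.5 CPM in mesenchymal cells (-2.11). The collagen receptor subunits Itga11 (-2.33), Itga10 (-3.21) and Itga1 (-1.44) were also lower, as were Itga8 (-4.38), Itgb3 (-3.93), Itga2b (-1.93), Lamb1 (-1.72) and Itga9 (-1.55). Itga8 and Itgb3 had 2 UMIs each in epithelial cells, which gives intervals of -7.46 to -2.48 and -7.01 to -2.01. The 6 members within 2-fold were Itgb1 (181 CPM in epithelial cells, 269 CPM in mesenchymal), Itgav (106 and 62.99 CPM), Lamc1 (59.8 and 48.8 CPM), Itgb5 (56.5 and 46.6 CPM), Lamb2 (11.4 and 17.0 CPM) and Itgb8 (5.62 and 5.89 CPM).

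**Figure D2:**
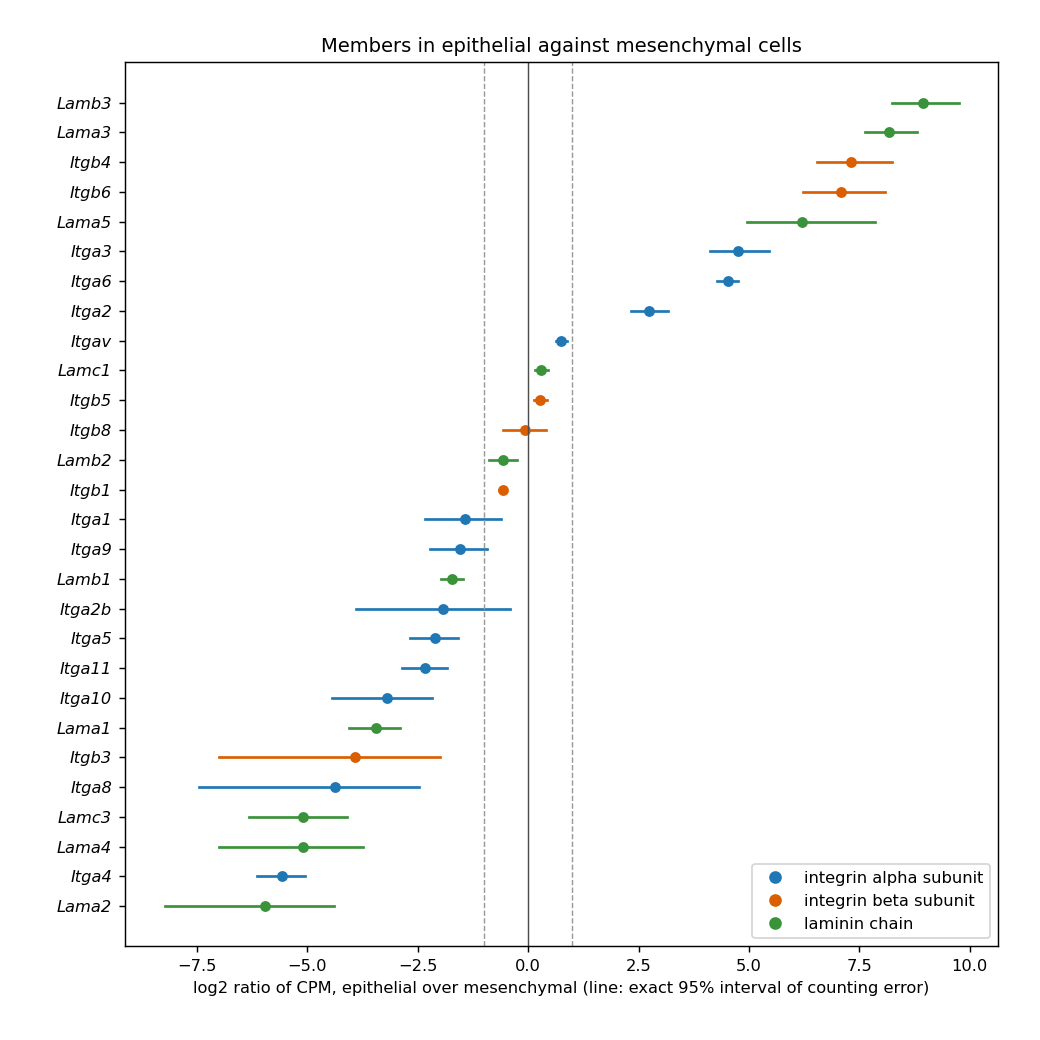
Log2 ratio of CPM, epithelial over mesenchymal cells, of 28 measured members (points; lines are exact 95% intervals of counting error; dashed lines mark 2-fold). Lamb3, Lama3, Itgb4 and Itgb6 lie above 7, and Lama2 and Itga4 lie lowest at -5.95 and -5.57.

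Enamel protein transcripts made up a large share of the epithelial UMIs. With genes above 1% of UMIs on either side left out of the totals, every ratio moved up by 0.30 on the log2 scale, Itgav passed 2-fold at 1.05, and Itgb8 changed sign to 0.23. The median log2 ratio was -0.57 over the 29 members and -0.29 over all genes tested. Of the members, 8 had fewer than 30 UMIs in these classes and were not compared: Itga7, Itgad, Itgae, Itgal, Itgam, Itgax, Itgb2 and Itgb7. Among 9 hemidesmosome and other laminin receptor genes, 4 were higher in epithelial cells and 0 lower. Col17a1, the hemidesmosomal collagen, had 242 CPM in epithelial cells and 1.00 CPM in mesenchymal cells (7.92), and Bcam, a receptor of the Lama5 chain, had 129 and 2.17 CPM in the same order (5.90). Dst and Cd151 were the other 2 (2.15 and 2.03). Of 19 measured adaptor genes 2 were higher and 9 lower: Fermt1, the epithelial kindlin, had 35.4 CPM in epithelial cells and 0.0556 CPM in mesenchymal cells (1 UMI), while Fermt2 had 16.4 CPM and 107 CPM (-2.71). Of 14 basement membrane genes 5 were higher, Ntn4 (5.64) and Col18a1 (5.16) most, and 7 lower, Nid2 (-5.78) and Nid1 (-5.76) most. Of 18 other ligands 5 were higher and 8 lower, Spp1 (-7.85), Vcam1 (-6.12) and Fn1 (-5.87) most. Over all genes tested, 10.5% were higher in epithelial cells and 20.1% lower. Without genes above 1% in the totals, 3 adaptors were higher and 6 lower, 6 basement membrane genes were lower, and the other counts of these lists did not change.

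Within the epithelium the members split along 4 clusters. A cluster of 288 cells led by Ambn, an enamel matrix gene, was ameloblast-like by 4 raised markers. A cluster of 204 cells was led by Dspp, a gene of odontoblasts and early ameloblasts, had 8 of 10 epithelial family markers raised and met no finer cell type. The part of remaining doublets with odontoblasts in this cluster was not tested. Clusters led by Grp (184 cells, with cell cycle genes among its leading genes) and by Enpp2 (92 cells) were also left unnamed, and the Enpp2-led cluster had the highest Krt17 level.

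Transcripts of Lama3 and Lamb3 were concentrated in the ameloblast-like cells. Lama3 had 793 CPM in the Ambn-led cluster (766 to 821), 288 CPM in the Dspp-led, 1.68 CPM in the Grp-led and 8.62 CPM in the Enpp2-led cluster. Lamb3 had 807, 330.3, 59.8 and 41.0 CPM in the same order. For both chains the Ambn-led level was highest and the Dspp-led level next, with no overlap of their intervals. UMIs of both chains were found together in 273 of 288 Ambn-led cells (94.8%), 89 of 204 Dspp-led cells (43.6%), 3 of 184 Grp-led cells (1.63%) and 1 of 92 Enpp2-led cells (1.09%). In the Sct-led mesenchymal cluster, of similar depth (median 9141 UMIs, against 11647.5 in the Ambn-led cluster), 1 of 408 cells held both (0.245%). Against the other epithelial cells, the ameloblast-like cells had log2 ratios of 2.60 for Lama3 (2.49 to 2.72) and 2.19 for Lamb3 (2.09 to 2.29).

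Itgb6 had 129 CPM in the Ambn-led, 96.2 CPM in the Dspp-led, 4.63 CPM in the Grp-led and 29.1 CPM in the Enpp2-led cluster, which put it at 1.39 (1.19 to 1.60) for ameloblast-like against other epithelial cells. The hemidesmosome integrin had another order. Itga6 had 127, 309, 228 and 166 CPM in the Ambn-led, Dspp-led, Grp-led and Enpp2-led clusters, and Itgb4 had 109, 175, 84.6 and 55.0 CPM. With all genes in the totals, both were highest in the Dspp-led cluster, where 65.2% of cells held UMIs of both genes, against 47.6% of Ambn-led cells. The order of the clusters without genes above 1% of UMIs is not given here. Itga6 was at -0.999 in ameloblast-like against other epithelial cells, just inside 2-fold, and Itgb4 was at -0.15.

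Of 19 measured members 4 were higher in the ameloblast-like cells, against 3.45% of 10565 genes tested, and 7 were lower, against 40.6%. Lama3, Lamb3 and Itgb6 were among the higher ones. The lower ones were Itga2 (1.44 CPM in ameloblast-like and 36.9 CPM in other epithelial cells, log2 ratio -4.68), Lamb1 (1.20 and 26.0 CPM, -4.44), Itga5 (0.479 CPM from 2 UMIs and 5.37 CPM, -3.49, -6.59 to -1.52), Lama5 (3.59 and 32.4 CPM, -3.17), Itgb1 (89.0 and 245 CPM, -1.46), Itga11 (2.15 and 4.69 CPM, -1.12) and Itgb8. Itgb8, an activator of TGF-beta with Itgav, had 0 UMIs in ameloblast-like cells and 57 in the others, a log2 ratio of at most -3.73 with 3 counts over the group in place of 0. Amelx, Ambn, Enam and Clu were among the genes above 1% of UMIs here. Without such genes in the totals all ratios moved up by 0.72, which left 6 members higher (Lamc1 at 1.36 and Itga3 at 1.21 were added) and 5 lower, with Itgb1 at -0.75 and Itga11 at -0.41 back within 2-fold. Itgav, Itgb4 and Itgb5 changed sign with the totals, at -0.08, -0.15 and -0.41 with all genes and 0.64, 0.57 and 0.31 without those above 1%. At a lower clustering resolution Itga11 turned to 0.46. Without the Dspp-led cluster, 4 members were higher and 5 lower of 16 measured. The median over all genes tested was -0.81 with all genes in the totals, and that over the 19 members was -0.41.

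Basement membrane partners were low in the ameloblast-like cells: 0 of 11 measured were higher and 9 lower. Col18a1 (-6.40), Col4a2 (-5.87), Col4a1 (-5.69) and Ntn4 (-5.01) were lowest, and Col4a1, the main chain of the collagen IV network, had 0.957 CPM in ameloblast-like and 49.5 CPM in other epithelial cells. Of 9 hemidesmosome and other laminin receptor genes 0 were higher and 3 lower, Bcam (-3.75), Sdc4 (-1.60) and Plec (-1.07). Of 18 adaptors 1 was higher and 9 lower, Tns1 (1 UMI in ameloblast-like cells, -4.62) and Tln2 (-4.05) most. Of 11 other ligands 1 was higher, Thbs1 (1.01), and 5 lower, Tnc (-6.72) most. Over all 10565 genes tested, 3.45% were higher and 40.6% lower in ameloblast-like cells. The partner counts depend on the totals. Without genes above 1% of UMIs, 1 basement membrane gene was higher (Hspg2 at 1.40) and 8 were lower, with Fras1 at -0.63. Of the hemidesmosome and laminin receptor genes 1 was then higher (Dst at 1.43) and 1 lower (Bcam at -3.03), with Plec at -0.36 and Sdc4 at -0.89. Of the adaptors 3 were then higher (Parvb at 2.93, Fermt1 at 1.40 and Bcar1 at 1.07) and 8 lower, and of the ligands 2 were higher (Thbs1 at 1.73 and Fn1 at 1.08) and 4 lower.

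**Figure D3:**
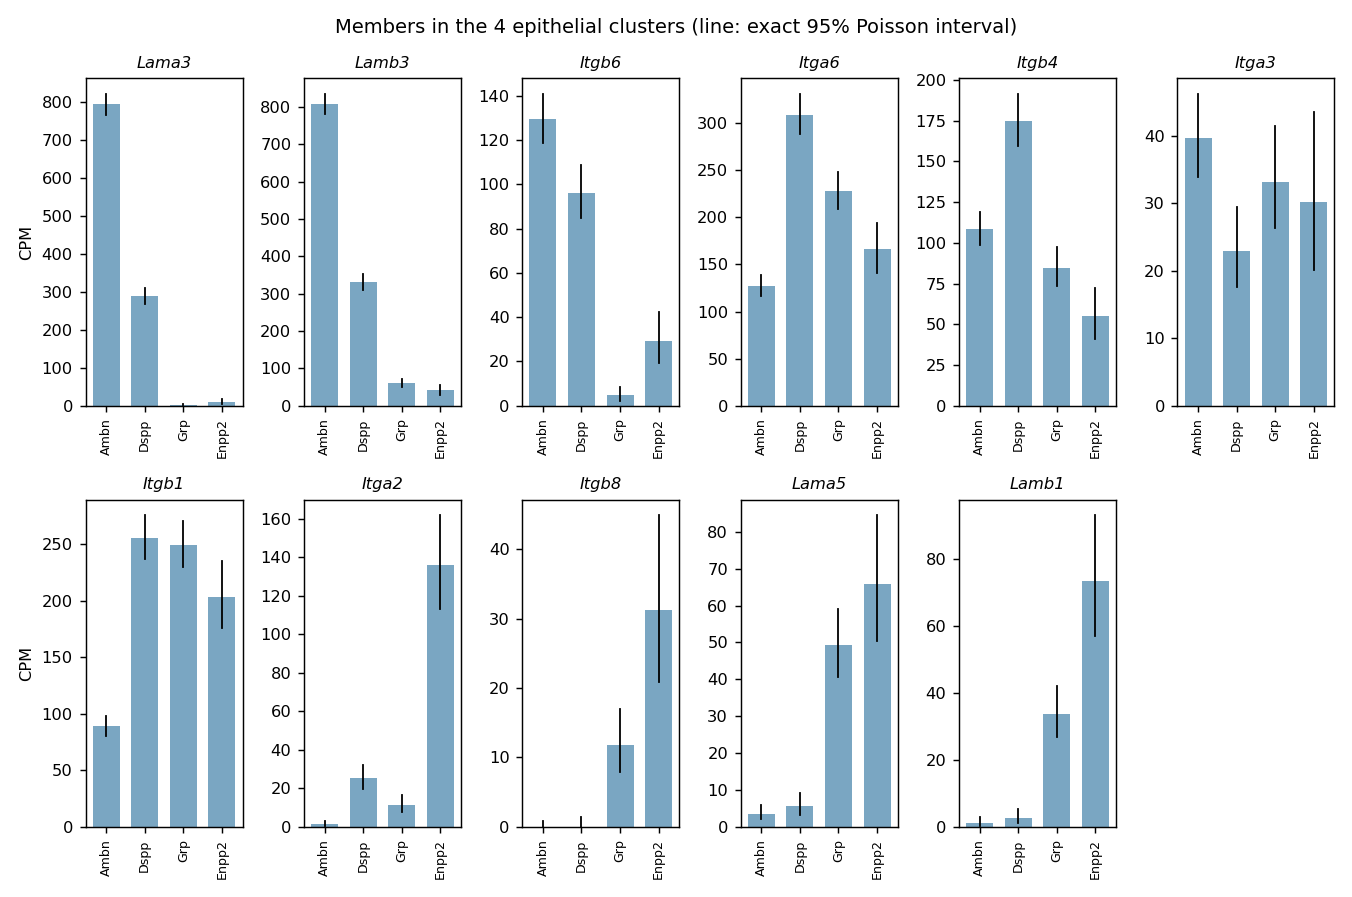
CPM of 11 members (panels, each with its own axis from 0) in the Ambn-led, Dspp-led, Grp-led and Enpp2-led epithelial clusters, left to right; lines are exact 95% Poisson intervals. Lama3, Lamb3 and Itgb6 fall from left to right across the first 3 clusters, Itga6 and Itgb4 peak in the Dspp-led cluster, and Itga2, Itgb8, Lama5 and Lamb1 peak in the Enpp2-led cluster.

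The Enpp2-led cluster with the highest Krt17 level differed in other members. Itga2 had 136 CPM there (126 UMIs, 113 to 162), against 10.9 CPM in the other epithelial cells, a log2 ratio of 3.65 (3.26 to 4.04). This was the highest Itga2 level of the 27 clusters. Itgb8 had 31.3 CPM in the Enpp2-led cluster and 3.04 CPM in the other epithelial cells (3.36, 2.56 to 4.17). Lamb1, a beta chain shared by many laminins, had 73.3 CPM in the Enpp2-led cluster and 9.98 CPM in the others (2.88). All 3 genes were below 2 CPM in the ameloblast-like cells. Lama5 had 65.8 and 16.0 CPM in the same order (2.04), Itga5 18.3 and 1.84 CPM (3.31) and Itga11 12.9 and 2.71 CPM (2.25). Lama3 had 8.62 CPM in the Enpp2-led cluster and 443 CPM in the others (-5.68), and Lamb3 (-3.54), Itgb6 (-1.59) and Itgb4 (-1.14) were among those lower too. In all, 6 of 19 measured members were higher, against 17.8% of genes tested, and 5 were lower, against 7.99%. The totals without genes above 1% moved every ratio by -0.32 and changed none of these calls.

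Tnc, tenascin-C, a ligand of several integrins, had 621 CPM in the Enpp2-led cluster and 3.26 CPM in the other epithelial cells (7.58), and it was the only 1 of 11 measured ligands that was higher, with 4 lower. Of 11 basement membrane genes 5 were higher, Ntn4 (2.31) and Col4a2 (2.30) most, and 0 lower. Of 18 adaptors 5 were higher, Tns3 (3.66) and Tgfb1i1 (3.29) most, and 1 was lower, Parvb (1.08 CPM in the Enpp2-led cluster from 1 UMI and 58.4 CPM in the others). Of 9 hemidesmosome and other laminin receptor genes, Sdc1 (1.94) and Sdc4 (1.38) were higher and Col17a1 (-1.17) was lower. Over all genes tested, 17.8% were higher in this cluster and 7.99% lower. Without genes above 1% in the totals, 4 adaptors were higher, 1 basement membrane gene was lower and 5 ligands were lower. Some markers of mesenchymal cells were higher in this cluster as well: 4 of 8 perivascular markers, summing to 239 CPM against 23.2 CPM in the other epithelial cells, and 3 of 8 pulp markers, at 387 against 91.6 CPM. The 10 mesenchymal family markers summed to 598 CPM against 421 CPM, with 2 of 10 higher. The part of mesenchymal RNA in these member levels was not tested.

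Among the 8 mesenchymal clusters, the 383 cells of the cluster led by Igf1 and Ogn stood apart. It was named dental follicle-like by 4 raised markers. Perivascular markers were higher there too (6 of 8, summing to 535 CPM against 45.6 CPM in other mesenchymal cells), with Acta2 and Tagln among the leading genes, and the part of perivascular cells in the member levels was not tested. Itgb5, which pairs with Itgav to bind vitronectin (chr16:33829665-33949338, plus strand), had 261 CPM there (242 to 281), the highest of all 27 clusters, against 8.51 CPM in the other mesenchymal cells. The log2 ratio was 4.94 (4.67 to 5.22). The Il1a-led immune cluster was next in Itgb5, at 211 CPM, with an interval that overlaps that of the follicle-like cells. In the other mesenchymal clusters Itgb5 ranged from 3.53 CPM (Sct-led) to 39.8 CPM (the Dspp-led cluster of 22 cells). Itgb3, the beta-3 subunit, had 18.4 CPM in the follicle-like cells and 0.262 CPM in other mesenchymal cells (50 and 4 UMIs, log2 ratio 6.13, 4.69 to 8.06). Itgb1 had 536 CPM in the follicle-like cells and 222 CPM in the others (1.27), and it was between 174 and 246 CPM in the other 7 mesenchymal clusters.

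Alpha subunits split in both directions in the follicle-like cells. Itga9, a receptor subunit for tenascin-C and Vcam1, had 34.6 CPM in follicle-like and 2.69 CPM in other mesenchymal cells (3.69). Itga11, the fibroblast receptor of fibrillar collagen, had 77.6 and 7.73 CPM in the same order (3.33), Itga8, the nephronectin receptor, 16.2 and 1.96 CPM (3.04), and Itga5 28.7 and 12.0 CPM (1.26). Itga4 ran the other way, with 30.2 CPM in follicle-like cells (82 UMIs) and 160.4 CPM in other mesenchymal cells (-2.41, -2.75 to -2.09). Itga10 (-2.50), Itga6 (-1.95) and Itgb8 (-1.85) were lower, and Itga2 had 0 UMIs in follicle-like cells against 60 in the others, a log2 ratio of at most -1.83.

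Of the 8 measured laminin chains 6 were higher in follicle-like cells and 0 lower. Lama4 had 54.4 CPM in follicle-like and 6.35 CPM in other mesenchymal cells (3.10), Lamc3 100.4 and 13.9 CPM (2.85), Lama2 61.4 and 10.6 CPM (2.53), and Lamb1 146 and 35.2 CPM (2.05). Genes of all 3 chain types were thus higher together. Lamc1 (1.64) and Lamb2 (1.52) were higher as well, while Lama1 (22.8 and 31.5 CPM, -0.47) stayed within 2-fold. In the Dspp-led cluster of 22 odontoblast-like cells, Lamb2 had 43.4 CPM (12 UMIs, 22.4 to 75.8), against 37.9 CPM in follicle-like cells. Lamc3 had 75.9 CPM in that cluster (47.0 to 116), which overlaps the interval of follicle-like cells (88.9 to 113). Across all members 13 of 22 were higher, against 15.3% of 12060 genes tested, and 5 were lower, against 9.98%. The median log2 ratio was 1.40 over the 22 members and 0.09 over all genes tested. Basement membrane genes included the highest ratios: Col4a1 had 422 CPM in follicle-like and 6.03 CPM in other mesenchymal cells (6.13), Col4a2 followed (5.99), and 6 of 12 were higher and 2 lower. Of 17 ligands 12 were higher and 1 lower. Npnt, nephronectin, had 121 CPM in follicle-like and 1.11 CPM in other mesenchymal cells (6.76), followed by Vcam1 (4.77), Fbln5 (4.63) and Tnn (4.22). Of 18 adaptors 8 were higher, Tgfb1i1 (3.32) and Vcl (2.50) most, and 2 lower, and of 8 hemidesmosome and other laminin receptor genes 4 were higher and 0 lower.

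At a finer clustering resolution the follicle-like cells fell mostly into parts led by Adgrg6 (156 cells), Igfbp3 (158 cells) and Sfrp2 (63 cells), in that order below. Itgb5 was high in all 3, at 339, 179.6 and 285 CPM, and so was Itgb1, at 678, 421 and 462 CPM. Itgb3 was concentrated in the Adgrg6-led part, with 39.5 CPM (45 UMIs) against 0.876 and 9.83 CPM. Lamc3 had 108 and 121 CPM in the first 2 parts and 29.5 CPM in the Sfrp2-led part. Itga11 had 116, 39.4 and 83.6 CPM, and Itga9 29.0, 45.5 and 19.7 CPM. Genes of smooth muscle and perivascular cells were divided among the parts. Acta2 had 266, 121 and 1118 CPM and Tagln 723, 379 and 1229 CPM, while Myh11 had 55.3, 21.0 and 9.83 CPM and was highest in the part where Itgb3 was highest. Rgs5, a pericyte gene, had 0 UMIs in the first 2 parts and 32.0 CPM in the Sfrp2-led part.

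**Figure D4:**
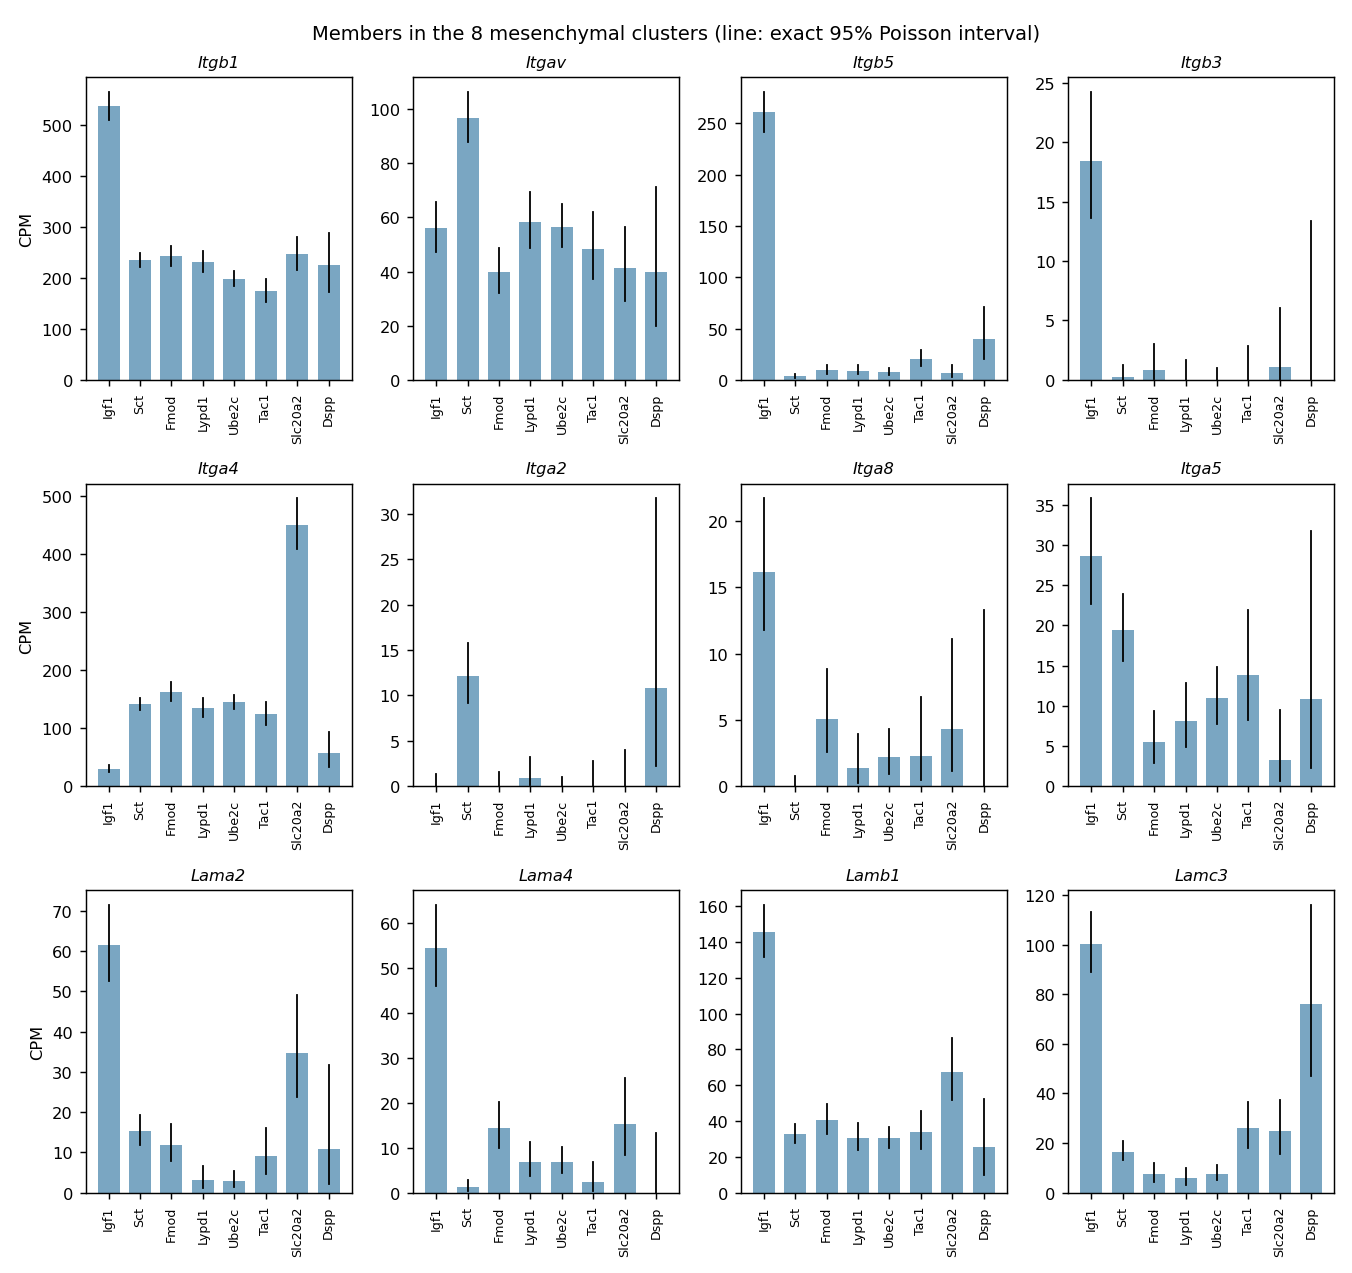
CPM of 12 members (panels, each with its own axis from 0) in the 8 mesenchymal clusters, named by their leading gene with the follicle-like Igf1-led cluster at the left; lines are exact 95% Poisson intervals. Itgb1, Itgb5, Itgb3, Itga8, Lama2, Lama4 and Lamb1 are highest in the Igf1-led cluster, Itga4 is highest in the Slc20a2-led cluster at 451 CPM, and Itga2 is above 1 CPM only in the Sct-led and Dspp-led clusters.

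Itga4 marked a different mesenchymal cluster. It had 451 CPM (409 to 497) in 126 cells led by Slc20a2, Cldn10 and Stbd1, which met no cell type name. This was the highest of the 27 clusters, and its interval overlapped those of the T or NK-like clusters led by Trbc2 (349.7 CPM, 272 to 443) and Gzma (335 CPM, 251 to 439). The next mesenchymal level was 162 CPM (147 to 179.5) in the Fmod-led pulp-like cluster, and the Sct-led, Ube2c-led, Lypd1-led and Tac1-led clusters had 142, 145, 135 and 125 CPM. Fibronectin, a ligand of this integrin, had 652 CPM of Fn1 in the Slc20a2-led cluster. Vcam1, its other main ligand, was highest in the Ccl7-led macrophage-like cluster, at 311 CPM.

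The odontoblast-like cells were 408 led by Sct and 22 led by Dspp. Itga2 had 12.1 CPM in odontoblast-like cells (58 UMIs) and 0.152 CPM in other mesenchymal cells (2 UMIs), a log2 ratio of 6.31 (4.39 to 9.39). Itga10, a chondrocyte-type collagen receptor, had 14.3 and 4.70 CPM in the same order (1.61). By cluster, it had 54.2 CPM in the Dspp-led cluster (15 UMIs, 30.4 to 89.4) and 11.9 CPM in the Sct-led cluster (8.95 to 15.5). The Slc20a2-led cluster, which is not odontoblast-like, had 32.5 CPM (22.0 to 46.5), above the Sct-led level. Lower in odontoblast-like cells were Itgb3 (0.208 CPM from 1 UMI, against 4.02 CPM, -4.27, -9.60 to -1.73), Lama4 (1.25 and 18.1 CPM, -3.86), Itgb5 (5.61 and 61.6 CPM, -3.46), Itga1 (-1.76), Itga9 (-1.66) and Itga8 (0 UMIs against 74, at most -3.17). The other mesenchymal cells include the follicle-like cells, which held most mesenchymal UMIs of Itgb3, Lama4, Itgb5, Itga9 (94 of 135) and Itga8 (44 of 74). Itga9 had 3.09 CPM in the Sct-led cluster. Outside the follicle-like and odontoblast-like cells it ranged from 1.36 CPM (Lypd1-led) to 6.15 CPM (Tac1-led) in mesenchymal clusters. Itgav had 93.6 CPM in odontoblast-like and 51.8 CPM in other mesenchymal cells (0.85, 0.68 to 1.03), within 2-fold. The counts were 3 of 22 higher, against 6.33% of genes tested, and 6 lower, against 17.6%. Of 12 basement membrane genes 1 was higher and 7 lower, Col4a1 (-5.22) and Col4a2 (-4.19) most, and of 17 other ligands 1 was higher and 9 lower, Tnn (-6.52) and Fbln5 (-6.14) most. Adaptors (0 of 18 higher, 5 lower) and hemidesmosome genes (0 of 8 higher, 2 lower) included Tgfb1i1 (-2.11) and Sdc1 (-2.27).

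Immune cells carried the leukocyte integrins. Itgb2, their common beta subunit (chr10:77530252-77565708, plus strand), had 129 CPM in immune cells (691 UMIs, 119.6 to 139) and 0.345 CPM in all other cells (10 UMIs), a log2 ratio of 8.55 (7.66 to 9.61). Itgal, the alpha subunit of LFA-1, had 87.4 CPM in immune and 0.172 CPM in other cells (8.99, 7.75 to 10.62). Itgam, the alpha subunit of Mac-1, had 106 and 0.241 CPM in the same order (8.78, 7.73 to 10.10). Itgax, the CD11c gene, had 17.9 CPM in immune cells (96 UMIs) and 0 UMIs in the others, a log2 ratio of at least 7.44 against 3 counts over the group. Itgb7, the beta subunit of gut-homing lymphocytes, had 34.0 CPM in immune and 0.828 CPM in other cells (5.36). After thinning to 2000 UMIs, 21.5% of 948 immune cells held an Itgb2 UMI, against 0.0492% of 2033 mesenchymal cells. Without thinning, and over all cells of each class, the shares were 32.1% and 0.363%.

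Further members were higher by less: Itga9 (29.0 CPM in immune and 6.59 CPM in other cells, 2.14), Itga5 (34.0 and 11.9 CPM, 1.52) and Itgb3 (5.42 and 2.07 CPM, 1.39, 0.70 to 2.05). That made 8 of 34 measured members higher, against 17.4% of 13993 genes tested, and 19 lower, against 33.5%. All 11 laminin chains were among the lower ones, from Lamc1 (6.91 CPM in immune and 54.1 CPM in other cells, -2.97) to Lama3 (1.49 and 142 CPM, -6.58), with Lamc3 at 0 UMIs in immune cells. The other 8 were Itga11 (-6.08, 1 UMI in immune cells, -11.39 to -3.59), Itgb6 (-5.70), Itga3 (-5.07), Itgb4 (-4.99), Itga10 (-3.69), Itgb8 (-2.91), Itga2 (-1.94) and Itga8 (-1.53). Within 2-fold were Itgb5, Itga4, Itga1, Itga2b, Itga6, Itgav and Itgb1, the last with 139 CPM in immune and 239 CPM in other cells. The median log2 ratio was -2.43 over the 34 members and -0.43 over all genes tested.

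The alpha partners of Itgb2 were divided among the immune clusters. Itgam was highest in the neutrophil-like clusters, with 332 CPM (269.9 to 403) in the Retnlg-led and 314 CPM (262 to 375) in the Camp-led cluster, whose intervals overlap. Itgal was highest in the Gzma-led T or NK-like cluster (329 CPM, 246 to 432) and the Ace-led monocyte-like cluster (326 CPM, 283 to 374), which also overlap. The neutrophil-like clusters differed in Itgal, at 219 CPM in the Retnlg-led and 30.2 CPM in the Camp-led cluster. Itgam had 0 UMIs in the Trbc2-led T or NK-like cluster, with an interval up to 19.0 CPM, whereas Itgal had 159 CPM there. Itgax reached 77.9 CPM in the Cd209a-led dendritic-like cluster, 76.0 CPM in the Gzma-led cluster and 52.8 CPM in the Il1a-led cluster, which had raised macrophage and dendritic markers and was left unnamed. Itgb2 ranged from 8.92 CPM in the Vpreb3-led B cell-like cluster to 385 CPM in the Retnlg-led cluster.

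Itgb7 was highest in the unnamed Hs3st1-led cluster (154 CPM) and in the Cd209a-led (128 CPM) and Trbc2-led (123 CPM) clusters, whose intervals overlap, and had 0 UMIs in the Vpreb3-led, Ccl8-led and Camp-led clusters. Its alpha partner Itga4 was highest among immune clusters in the Trbc2-led (349.7 CPM), Gzma-led (335 CPM) and Ace-led (334 CPM) clusters, and lowest in the Camp-led cluster (20.1 CPM). Another set of integrins was high in the macrophage-like Ccl7-led cluster, the Ccl8-led cluster and the unnamed Il1a-led cluster. Itgb5 had 211 CPM in the Il1a-led, 163 CPM in the Ccl8-led and 158 CPM in the Ccl7-led cluster, and at most 35.2 CPM in the other immune clusters. Itga9 had 49.4, 56.5 and 58.9 CPM in the same 3 clusters and at most 4.46 CPM in the others. Itga2, known as the NK cell marker CD49b, had 57.0 CPM in the Gzma-led cluster from 9 UMIs (26.1 to 108).

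**Figure D5:**
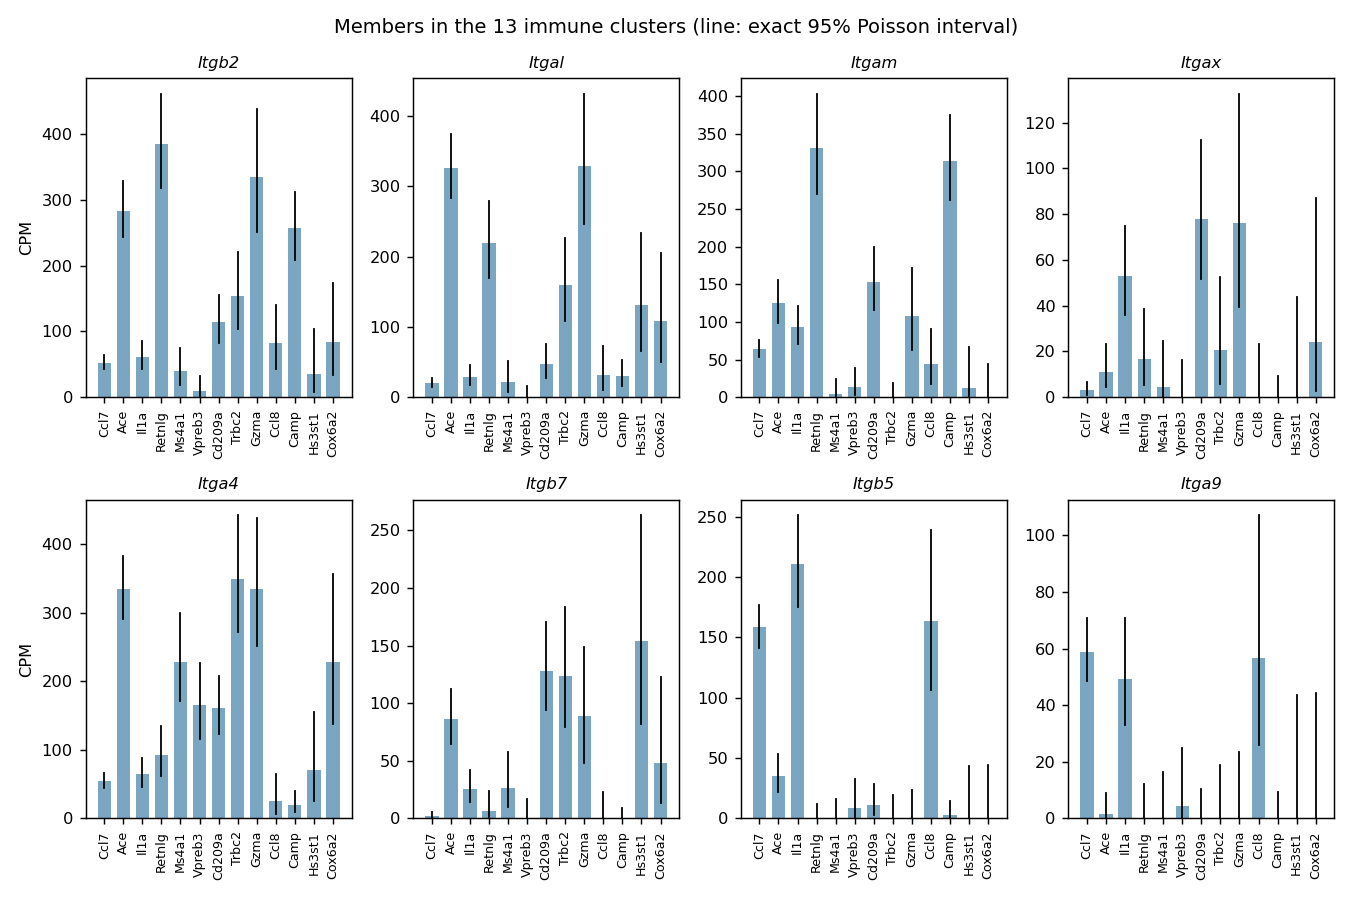
CPM of 8 members (panels, each with its own axis from 0) in the 13 immune clusters, named by their leading gene; lines are exact 95% Poisson intervals. Itgam is highest in the Retnlg-led and Camp-led clusters (332 and 314 CPM), Itgal in the Gzma-led and Ace-led clusters (329 and 326 CPM), and Itgb5 and Itga9 in the Ccl7-led, Il1a-led and Ccl8-led clusters.

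Of 23 measured adaptors 6 were higher in immune cells and 10 lower. Apbb1ip, the talin recruiter RIAM, had 97.9 CPM in immune and 0.966 CPM in other cells (6.66), Fermt3, the kindlin of blood cells, 99.02 and 1.28 CPM (6.28), and Parvg was at 5.59, while Fermt2 was at -5.31. Of 18 ligands 4 were higher and 11 lower. Vcam1 had 129 CPM in immune and 5.97 CPM in other cells (4.43), while Fbln5 was at -6.06, Ctgf at -4.82 and Tnc at -4.71. Of 15 basement membrane genes 1 was higher and 13 lower, Nid1 (-5.07) and Frem1 (-5.01) most, and of 9 hemidesmosome and other laminin receptor genes 1 was higher and 6 lower, Col17a1 (-5.13) and Bcam (-5.01) most. Over all genes tested, 17.4% were higher in immune cells and 33.5% lower. Lamb3, with 8.22 CPM in immune cells (44 UMIs), was the laminin chain with most immune UMIs, and its level lay below the 44.1 CPM of free RNA.

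The 74 endothelial cells, with all 8 endothelial markers at least 2-fold higher, held another laminin set. Lama4 had 168 CPM in endothelial cells (75 UMIs) and 7.37 CPM in all other cells (log2 ratio 4.51, 4.12 to 4.89), and Lama5 had 87.5 and 6.31 CPM in the same order (3.79, 3.26 to 4.29). These are the alpha chains of laminins in vessel walls. Their beta and gamma partners Lamb2 (137 and 12.7 CPM, 3.43), Lamb1 (159 and 32.4 CPM, 2.30) and Lamc1 (189 and 44.9 CPM, 2.07) were higher as well. Lamb3 had 0 UMIs in endothelial cells, a log2 ratio of at most -4.30, and Lama3 (18.0 and 122 CPM, -2.76) and Lama1 (0 UMIs, at most -1.34) were lower.

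Among the integrins, Itga1, a receptor subunit for collagen IV, had 112 CPM in endothelial and 3.48 CPM in other cells (5.01, 4.50 to 5.50). Itga2b, the platelet subunit, had 33.7 and 1.09 CPM in the same order (15 and 37 UMIs, 4.95), Itga5 109.98 and 14.1 CPM (2.97) and Itga9 67.3 and 9.32 CPM (2.85). Itga6 had 348 CPM in endothelial cells (295 to 407) and 73.5 CPM in the others (2.24). This was its highest level, with an interval that overlaps that of the Dspp-led epithelial cluster (309 CPM, 288 to 331). Itgb4 had 44.9 CPM in endothelial cells (20 UMIs) and 35.2 CPM in the others (0.35, -0.37 to 0.98). Endothelial Itga6 was thus far above endothelial Itgb4. Itgb1 had 492 and 219.6 CPM (1.16), and Itgb3 6.73 CPM from 3 UMIs and 2.54 CPM (1.41, -0.90 to 3.00, and -0.0028 with every cell at the same weight). Lower were Itga4 (2.24 CPM from 1 UMI, against 97.5 CPM, -5.44, -10.74 to -2.96), Itgb5 (-3.65), Itgav (8.98 and 72.4 CPM, -3.01), Itgam, Itgb2, Itgb6 and Itgal, of which the last 4 had at most 1 UMI in endothelial cells. In all, 12 of 34 measured members were higher, against 16.7% of genes tested, and 11 lower, against 15.4%. The median log2 ratio, with genes at 0 taken at their bound, was 0.53 over the 34 members and 0.24 over all genes tested. For 6 members with 0 endothelial UMIs (Itga10, Itga11, Itgax, Itgb7, Itgb8 and Lama2) the bound did not reach 2-fold.

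Of 15 basement membrane genes 7 were higher in endothelial cells and 2 lower, Col15a1 (103 and 1.18 CPM in endothelial and other cells, 6.45), Col4a1 (5.04) and Col4a2 (4.91) most. Of 23 adaptors 12 were higher and 3 lower, Lims2 most (98.8 CPM, against 0.0590 CPM from 2 UMIs). Of 18 other ligands 6 were higher, Icam2 (7.27) and Ctgf (4.56) most, and 8 lower, and of 9 hemidesmosome and other laminin receptor genes 4 were higher and 3 lower, with Cd151 at 2.36 and Col17a1 at -5.03. Over all genes tested, 16.7% were higher in endothelial cells and 15.4% lower. With genes above 1% left out of the totals, 3 hemidesmosome and other laminin receptor genes were higher, with Dag1 at 0.97. The other counts of these lists did not change. Endothelial cells also held 2.24 CPM of summed T or NK cell markers, 69.6 CPM of macrophage markers and 258 CPM of perivascular markers, against 116, 1138 and 80.3 CPM in the other cells, and the part of such cells in the member levels was not tested.

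Other annotated genes overlap some members on the same strand in the GENCODE M21 annotation of mm10, which can make the counting of reads uncertain. Whether the overlapping genes were in the reference used for counting was not checked. Pelo and Gm49395 at Itga1, Gm42957 at Itga10 and Gm49368 at Itgam are protein-coding. Noncoding genes or pseudogenes on the same strand overlap Itga5 (Mir6963), Itga6 (Gm13662 and Gm13663), Lama2 (Gm36962), Lama3 (Gm29201), Lamb3 (4930570N18Rik and Gm37691) and Lamc1 (Gm38009). Among the members with fewer than 300 UMIs the same holds for Itga2b, Itga7, Itga8, Itgad and Lama5. Itgam, Itgax and Itgad are also neighbours on chr7, at 128062640-128118491, 128129547-128150657 and 128154376-128223816, all on the plus strand.

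Profiles over the 27 clusters were compared between members, as a description over points that share 1 library and differ in depth. Over log2 of CPM plus 5, Pearson's r was 0.884 between Lama3 and Itgb6, 0.925 between Itga3 and Itgb4, 0.938 between Itgal and Itgb2 and 0.881 between Lama2 and Lamc3. Outside the family, the genes most like Itgb4 were Urah (r = 0.940), Hspb8 (0.925) and Fermt1 (0.898). Those most like Itgb6 were Serpinb5 (0.965), Gm4675 (0.965) and Cobl (0.941), and those most like Lama3 were Akain1 (0.946), Papln (0.934) and Chst1 (0.933). Itgb2 was most like Gpsm3 (0.949), Ptprc (0.945) and Lcp1 (0.941). Lama4 was most like Cxcl12 (0.935), Hmcn1 (0.901) and Fbln5 (0.895), and Lama1 was most like Asphd2 (0.948), Clip3 (0.935) and Baalc (0.934). Itga4 had no close match, with Plac8 first at 0.722.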

How the data were processed

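The authors deposited UMI counts per gene for every barcode, without a cell filter. Per the file headers, the matrix was written by software version 3.0.2, with no program named, and its metadata have format version 2. The aligner is not given in the sources used here, and build mm10, R 3.4.1 and Seurat are named in the submitters' processing notes. The matrix contained 31053 genes, 6794880 barcodes and 68931830 UMIs, and 0 sample columns were left unused. The members, lists and comparisons were chosen with earlier results of these data known.

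Barcodes with at least 500 genes and at most 20% mitochondrial UMIs were kept. Scrublet's own threshold called 1 doublet, so a score above 0.15 was used (122 barcodes), and 151 barcodes with over 5% haemoglobin UMIs outside erythroid clusters were removed. Cells were scaled to 10000, and 2000 variable genes, 30 components, 15 neighbours and the Leiden method (resolution 1.0, 0.5 within the mesenchyme, seed 0) were used in scanpy 1.11.5 and leidenalg 0.10.2 under Python 3.11.15. The 110 member and partner genes were left out of the clustering. Clusters took names from markers raised 2-fold in at least 25% of cells. The rule that another family competes by its family markers alone was chosen after the Dspp-led epithelial cluster was seen.

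Counts were summed per class as CPM, with exact Poisson, conditional binomial and Clopper-Pearson intervals at 95% (scipy 1.17.1). With 1 sample, no test was made. A gene at 0 on one side took 3 counts and was called only in the direction of that bound. All 37 members enter the counts, those with at least 300 UMIs are described by class, and 1 is not reported here. Of each partner list, genes with the largest log2 ratios are named, up to 4 for each comparison. Thbs1 in ameloblast-like cells, Vcam1 in immune cells, Fn1 and Vcam1 beside Itga4, and Acta2, Tagln, Myh11 and Rgs5 were named after their values were seen. Genes most like a member are the 3 with the highest r. The code for ratios and intervals was run on counts drawn by a Poisson model from the mesenchymal profile. Such counts fit the intervals by design, so this checked the code and not the spread between cells or animals. Protein motifs were not searched here.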

Additional observations from a re-analysis of the deposited data

How the results depend on the processing

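No paired analysis was possible because the lanes could not be told apart in the matrix, and for the same reason no replicate could be left out. The 14 counts of members were recomputed under 13 alternatives, 1 of them (without the Dspp-led epithelial cluster) chosen after seeing the data, and 164 of 172 recomputed counts lay within 1.5 times the reported one. The other 8 came from the minimum of UMIs. With a minimum of 1 UMI, 11 members were lower in ameloblast-like cells, 11 higher in the Krt17-highest cluster, 20 higher in follicle-like cells and 8 higher in odontoblast-like cells. With at least 100 UMIs, 4 were lower in ameloblast-like cells, 3 higher in the Krt17-highest cluster, and 1 higher and 3 lower in odontoblast-like cells. These settings change which genes are compared. Of 956 recomputed log2 ratios of called members, 954 kept their sign. The exceptions were Itgb3 in endothelial cells (-0.0028 with equal cell weights) and Itga11 in ameloblast-like cells (0.46 at lower resolution); their cause was not tested. At 74 endothelial cells, the 3 counts put in place of 0 equalled 6.73 CPM, and the exact interval of a count of 0 reached 8.28 CPM.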

Other observations

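Erythroid cells, which entered no comparison of their own, held 1 member at a high level: Itga4 had 135 CPM there (57 UMIs, interval 103 to 175), and 50.9% of the 57 cells held a UMI of it before thinning. Itgb1 had 61.7 CPM in the same cells. Lama3 had 6 UMIs and Lamb3 8 UMIs in erythroid cells, and 1 cell (1.75%) held both.

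Lamb3 had 63.3 CPM in the Gzma-led immune cluster (10 UMIs, 30.4 to 116), with 10.8% of its 74 cells positive before thinning, and 35.2 CPM in the Ms4a1-led cluster (8 UMIs). The free-RNA level of Lamb3 was 44.1 CPM. Lama3 had 8 UMIs in endothelial cells, in 10.8% of 74 cells, while Lamb3 had 0 there. That was 18.0 CPM of Lama3 (7.75 to 35.4), and its free-RNA level was 30.9 CPM. In the Hs3st1-led immune cluster of 38 cells, which met no cell type name, Itgb3 had 71.1 CPM and Itgb7 154 CPM, from 6 and 13 UMIs. These were the highest levels of both genes among the 27 clusters. For Itgb3 the interval (26.1 to 155 CPM) overlapped those of other immune clusters, among them the Cox6a2-led one (7.44 to 105 CPM).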
